A study of Mus musculus with 6 samples.

Results

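The genes described here are 10 that build, coat and empty lipid droplets or move fatty acids into macrophages: Plin2, Plin3, Hilpda, Dgat1, Dgat2, Pnpla2, Acsl1, Cd36, Lpl and Fabp5. They were taken by symbol from the 22063 genes of a table with RNA sequencing counts, each symbol matched 1 row, and all 10 passed the filter on low counts. The study set 3 samples of CAR-Ms against 3 of CAR-Trem2-Ms, mouse macrophages in which a lentivirus was used to install a CAR (chimeric antigen receptor), an engineered protein that steers the cell toward an antigen of choice. Both groups are labelled as macrophages with skin as the tissue, and both grew for 7 days in complete DMEM with the macrophage growth factor M-CSF at 20 ng/mL. CAR-Ms have the genotype label WT. CAR-Trem2-Ms have the genotype label TERM2+ (spelled so), and their own labels add 24 h of induction with VD3 (1 µM) and then sorting by flow cytometry. The protocol text shared by all samples also names VD3, so the labels leave it unclear whether CAR-Ms received it. Trem2 status and sorting, and VD3 if CAR-Ms had none, changed together and cannot be told apart here. The labels give neither the target of the receptor nor the promoter, strain or age, and none says whether replicates came from different cultures or mice. The p-values therefore reflect the spread of these samples alone, and that spread could be technical. The series title places the comparison in work on scars.

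Lipid droplets are stores of neutral lipid, mostly triglyceride and cholesteryl ester, wrapped in a phospholipid monolayer and a coat of perilipin proteins. Fatty acids enter macrophages through receptors such as CD36 or are freed from lipoproteins by lipoprotein lipase, are joined to coenzyme A by acyl-CoA synthetases, and are stored as triglyceride by the DGAT enzymes until lipases release them again. Macrophages with many droplets are known as foam cells.

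In CAR-Trem2-Ms the droplet coat gene Plin2 was 11.2-fold higher and the acyl-CoA synthetase gene Acsl1 3.88-fold lower than in CAR-Ms. Hilpda, an inhibitor of lipolysis, Dgat1, which makes triglyceride, and Pnpla2, the main triglyceride lipase, rose by 2.43-fold, 2.34-fold and 1.68-fold. Dgat2, the other triglyceride synthase, fell 2.196-fold, and Fabp5 and Lpl fell 1.39-fold and 1.27-fold. Plin3 rose 1.33-fold. Cd36 was close to absent in both groups, with 0 to 20 reads per sample. By edgeR's quasi-likelihood test with Benjamini-Hochberg adjustment over 11402 tested genes, 6 of the 10 rose and 4 fell at an adjusted p under 0.05. Since 81.1% of all tested genes passed that test (40.9% higher, 40.1% lower), the count of 10 of 10 is not a result about these genes, and the sizes are what sets them apart from each other. At least 2-fold changes were called for 6 of the 10 (4 higher, 2 lower) and for 33% of all tested genes. The groups did not overlap in CPM for any of the 10, as in 81.8% of all tested genes. The log2 fold change of Plin2 stood at the 98.8th percentile of all tested genes and that of Acsl1 at the 2.6th. The median over the 10 genes was 0.58 on the log2 scale, where the median over all tested genes was 0.03. Cd36 entered these counts only through its few reads in CAR-Trem2-Ms. With a filter of 10 reads in every sample of 1 group, Cd36 was not tested. Of the 9 members left, 5 rose and 4 fell, with a median of 0.42 against 0.02 over all tested genes.

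**Figure D1:**
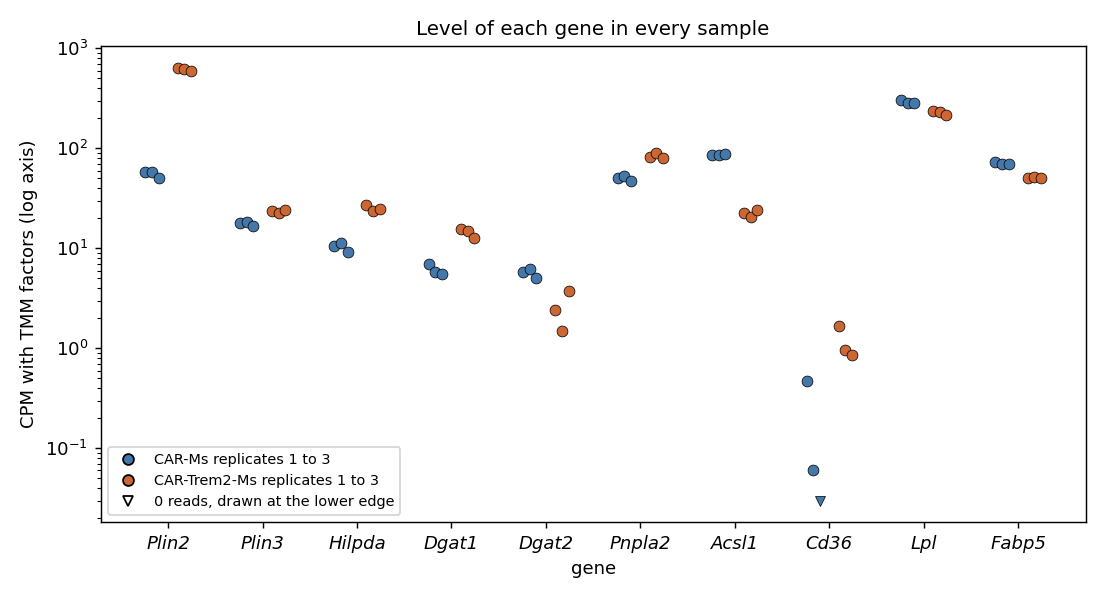
Level of each of the 10 genes (x axis) in every sample, as CPM with TMM factors (y axis, log scale); blue points are the 3 CAR-Ms samples, orange points the 3 CAR-Trem2-Ms samples, and a triangle marks 0 reads. The groups do not overlap for any of the 10 genes, Plin2 shows the widest gap among genes with over 100 reads in every sample, and Cd36 lies below 2 CPM throughout.

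Total counts ran from 14204468 to 15913100 reads in CAR-Ms, and CAR-Trem2-Ms had 9804959 to 12558021 reads. Mitochondrially encoded genes took 4.596 to 4.704% of counts in CAR-Ms against 13.38 to 13.8% in CAR-Trem2-Ms. Trem2, whose rise the label implies, averaged 76.6 ± 2.32 and 191.2 ± 7.56 CPM (SD, n = 3 each), and counts do not tell the cell's own transcript from an introduced one. Macrophage markers (Adgre1, Csf1r, Cd68, Lyz2, Itgam and Fcgr1) were detected in every sample, with a summed level of 3295 to 3310 CPM in CAR-Ms against 3430 to 3443 CPM in CAR-Trem2-Ms. By counts, 4 of these 6 genes rose and Csf1r and Cd68 fell, beside 40.9% higher and 40.1% lower over all tested genes. On log2(TPM + 1), with TPM the authors' abundance per transcript length, Fcgr1 was higher (1.05). Csf1r (-1.47), Cd68 (-0.79), Lyz2 (-0.27) and Itgam (-0.24) were lower there, and Adgre1 did not pass (-0.19). The median over all genes on that scale was -0.63. Other cells known for the genes described here were near absent: 6 adipocyte markers summed to 0.472 to 0.988 and 0.512 to 2.44 CPM with Lep at 0 reads, and 5 of 6 keratinocyte markers had 0 reads in all samples, with 1 read of Krt14 in all. Endothelial markers (6 genes, 2 of them lower) summed to 3.44 to 5.12 CPM in CAR-Ms against 0.920 to 2.23 CPM in CAR-Trem2-Ms, and neutrophil markers (6 genes, 5 lower) to 17.9 to 34.2 and 2.39 to 5.31 CPM. Fibroblast markers (1.71 to 2.76 against 3.18 to 4.18 CPM), dendritic cell markers (1.69 to 2.11 against 1.96 to 4.10 CPM) and T or B cell markers (4.55 to 7.42 against 4.44 to 6.80 CPM, with 2 genes higher and 2 lower) also lay below 10 CPM. The part of these cells in the results below was not tested. In such bulk samples fewer cells of a type and less RNA per cell cannot be told apart.

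The stretches before the start sites of the gene that rose most and the gene that fell most among the well-expressed ones, Plin2 and Acsl1, are shown here so that their base composition and motifs can be compared. Each is the 250 bases before the start in RefSeq (GRCm38.p6), 5′ to 3′ on the gene's own strand, for Plin2 at chr4:86670060-86670309 (minus strand) and for the first of the 2 listed starts of Acsl1 at chr8:46470787-46471036 (plus strand). Capitals mark AGGTCA, the core element read by many nuclear receptors, and GCGTG, a core hypoxia element, on either strand.
Plin2: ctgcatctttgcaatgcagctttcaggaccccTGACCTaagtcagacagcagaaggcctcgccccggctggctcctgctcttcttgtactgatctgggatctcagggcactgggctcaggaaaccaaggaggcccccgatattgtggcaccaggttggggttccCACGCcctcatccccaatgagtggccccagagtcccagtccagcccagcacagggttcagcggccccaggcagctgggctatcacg
Acsl1: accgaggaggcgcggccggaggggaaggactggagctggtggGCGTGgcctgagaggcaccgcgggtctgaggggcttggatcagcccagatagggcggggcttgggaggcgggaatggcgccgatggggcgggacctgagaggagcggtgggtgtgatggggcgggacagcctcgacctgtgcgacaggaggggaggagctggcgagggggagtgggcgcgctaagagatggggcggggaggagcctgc
The Plin2 window held AGGTCA once, on the opposite strand with its first base at -218 from the start, and GCGTG once, on the opposite strand at -86. The first Acsl1 window held GCGTG once, at -208, and no AGGTCA. Its GC content was 72% with 20 CG pairs, against 61.6% and 6 in Plin2. Medians over all 32851 windows of that length were 52.4% and 6. The second Acsl1 window differed, with 48.4% GC, 2 CG pairs and neither motif. Which start these cells use was not tested. Windows were listed for 6 of the 10 genes (Plin2, Plin3, Hilpda, Pnpla2, Acsl1 and Cd36; 8 windows, since Hilpda and Acsl1 have 2 each). AGGTCA was found in those of Plin2 and Cd36 and in 14% of all windows. A direct repeat of AGGTCA with any 1 base between its 2 copies, the classical PPAR element, was found in none of the 8 and in 0.0335% of all. ACGTG was found in the second window of Hilpda and in 16.6% of all, and GCGTG in Plin2, the first window of Acsl1 and the second of Hilpda and in 28.2% of all. The E-box CACGTG, which contains ACGTG (6.02% of all), the AP-1 site TGACTCA (4.46%) and TATAAA (12.4%) were in none of the 8, and GGGCGG was in windows of Cd36, Hilpda, Pnpla2, Acsl1 and Plin3 and in 32.7% of all. All motifs were searched on both strands, and a match or its lack describes the letters of the window only.

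The perilipins coat the droplet surface. Plin2 (ENSMUSG00000028494, chromosome 4, 86648386 to 86670060, minus strand, GRCm38) encodes the coat protein of most droplets outside fat tissue. It read 57.8, 57.8 and 50.8 CPM in replicates 1, 2 and 3 of CAR-Ms, against 643, 622 and 601 CPM in CAR-Trem2-Ms replicates 1, 2 and 3. All CAR-Trem2-Ms samples lay more than 10 times above the highest CAR-Ms sample, and the samples of a group lay close together. Group means of 55.5 ± 4.05 against 622 ± 21.1 CPM (SD, n = 3 each) gave a log2 fold change of 3.49 ± 0.04 (SE; edgeR, adjusted p = 1.07e-31). Plin3 (ENSMUSG00000024197, chromosome 17, 56277476 to 56292873, minus strand), a perilipin that moves between the cytosol and nascent droplets, read 17.9, 18.2 and 16.9 CPM in CAR-Ms, against 23.7, 22.7 and 24.2 CPM in CAR-Trem2-Ms. Its groups were separate but near each other, with a log2 fold change of 0.42 ± 0.11 (SE; edgeR, adjusted p = 1.002e-03) that turned to -0.24 on log2(TPM + 1) (limma, adjusted p = 0.0328). TPM is the authors' abundance per transcript length, and on that scale the whole table was shifted: the median over all genes was -0.63. Relative to the median gene, Plin3 was 0.39 higher on the CPM scale and 0.39 higher on the TPM scale.

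Per length, Plin2 made up 86.5, 87.0 and 86.3% of the summed TPM of Plin1 to Plin5 in CAR-Ms against 98.3, 98.1 and 98.2% in CAR-Trem2-Ms. The remainder was nearly all Plin3, at 12.7 ± 0.137% and 1.66 ± 0.089% (SD, n = 3 each). The other perilipins, known from fat cells and oxidative tissues, each took under 1% in every sample: Plin1 and Plin5 had 0 to 8 and 0 to 5 reads per sample and were not tested, and Plin4 did not pass. The ratio of Plin2 to Plin3 within a library, which no scaling factor can move, rose from 6.82 ± 0.049 to 59.3 ± 3.11 in TPM and from 3.14 ± 0.11 to 26.4 ± 1.42 in counts.

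Hilpda and Pnpla2 act on opposite sides of lipolysis. Hilpda (ENSMUSG00000043421, chromosome 6, 29272488 to 29275446, plus strand) encodes a small hypoxia-inducible protein that binds and inhibits the lipase ATGL, the product of Pnpla2. It read 10.5, 11.3 and 9.22 CPM in CAR-Ms, against 27.1, 23.7 and 24.7 CPM in CAR-Trem2-Ms. The lowest CAR-Trem2-Ms sample was above 2 times the highest CAR-Ms sample, and the log2 fold change was 1.28 ± 0.12 (SE; edgeR, adjusted p = 2.29e-10), or 0.55 ± 0.08 on log2(TPM + 1) (limma, adjusted p = 4.62e-04). After removal of the trend of fold changes over gene length it was 0.51.

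Pnpla2 (ENSMUSG00000025509, chromosome 7, 141455198 to 141460743, plus strand), the first enzyme of triglyceride breakdown, read 50.4, 52.6 and 46.8 CPM in CAR-Ms, against 81.7, 90.9 and 80.1 CPM in CAR-Trem2-Ms. On the CPM scale the groups were separate, with a log2 fold change of 0.75 ± 0.07 (SE; edgeR, adjusted p = 2.10e-11). On the TPM scale they overlapped, at 44.2, 44.9 and 40.4 TPM against 40.0, 50.3 and 43.2 TPM, and the difference of log2(TPM + 1) was 0.038 (limma, adjusted p = 0.710). The call for Pnpla2 thus held for counts and was lost on TPM, a scale on which the median gene stood at -0.63. Relative to the median gene, Pnpla2 was 0.72 higher on CPM and 0.67 higher on TPM. The ratio of Plin2 to Pnpla2 rose on both scales, from 1.26 ± 0.029 to 8.90 ± 1.26 in TPM and from 1.11 ± 0.031 to 7.41 ± 0.516 in counts.

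Dgat1 and Dgat2 encode unrelated enzymes that catalyse the same last step of triglyceride synthesis, and they moved in opposite directions. Dgat1 (ENSMUSG00000022555, chromosome 15, 76502015 to 76511953, minus strand) read 6.95, 5.85 and 5.60 CPM in CAR-Ms, against 15.6, 14.9 and 12.6 CPM in CAR-Trem2-Ms, a log2 fold change of 1.23 ± 0.16 (SE; edgeR, adjusted p = 1.03e-07). Dgat2 (ENSMUSG00000030747, chromosome 7, 99153658 to 99182719, minus strand) read 5.87, 6.27 and 5.01 CPM in CAR-Ms, against 2.42, 1.49 and 3.76 CPM in CAR-Trem2-Ms, a log2 fold change of -1.14 ± 0.28 (SE; edgeR, adjusted p = 6.49e-04). The Dgat2 values of CAR-Trem2-Ms rest on 29, 14 and 44 reads and spread more than 2-fold. Without CAR-Trem2-Ms replicate 2 the fall was -0.89 and without replicate 3 it was -1.52 (log2). Relative to the median gene Dgat2 stood at -1.16 on CPM and -0.49 on TPM. The ratio of Dgat1 to Dgat2 in TPM was 1.41, 1.16 and 1.39 in CAR-Ms against 4, 12.3 and 4.16 in CAR-Trem2-Ms, so the groups were separate although replicate 2 of CAR-Trem2-Ms stood far above the others.

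Acsl1 (ENSMUSG00000018796, chromosome 8, 46471037 to 46536051, plus strand) encodes the acyl-CoA synthetase that macrophages are known to induce in inflammatory states. It read 85.7, 86.1 and 88.3 CPM in CAR-Ms, against 22.3, 20.4 and 24.0 CPM in CAR-Trem2-Ms. The samples of each group lay within a narrow band, and the log2 fold change was -1.96 ± 0.07 (SE; edgeR, adjusted p = 6.98e-20), or -2.49 ± 0.14 on log2(TPM + 1) (limma, adjusted p = 1.13e-06). Acsl1 overlaps the minus-strand gene Gm45244, and no source used here states whether counting used strand. Among the 5 Acsl genes, which share this reaction, Acsl1 made up 17.0 ± 0.467% of the summed TPM in CAR-Ms against 7.67 ± 1.78% in CAR-Trem2-Ms (SD, n = 3 each). Acsl5 took the largest share in both groups, 37.3 ± 2.13% and 50.5 ± 0.557%. Acsl3 (23.6 ± 3.62% and 23.1 ± 1.85%) overlapped between the groups, Acsl4 went from 22.0 ± 1.08% to 18.8 ± 1.48%, and Acsl6 had at most 2 reads in any sample.

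Of the uptake genes, Lpl was the most abundant of the 10 per length in CAR-Ms. Lpl (ENSMUSG00000015568, chromosome 8, 68880491 to 68907448, plus strand), the secreted lipase that frees fatty acids from lipoprotein triglyceride, read 304, 284 and 283 CPM in CAR-Ms, against 238, 230.5 and 217 CPM in CAR-Trem2-Ms. The groups were separate by a small margin, with a log2 fold change of -0.34 ± 0.04 (SE; edgeR, adjusted p = 1.58e-09), which was -0.018 once the trend over gene length was removed and -1.10 on log2(TPM + 1). Fabp5 (ENSMUSG00000027533, chromosome 3, 10012548 to 10016607, plus strand), a cytosolic carrier of fatty acids, read 73.2, 70.0 and 69.7 CPM in CAR-Ms, against 50.9, 51.6 and 50.6 CPM in CAR-Trem2-Ms, a log2 fold change of -0.47 ± 0.06 (SE; edgeR, adjusted p = 6.41e-08) and a difference of -1.17 on log2(TPM + 1). Processed copies of Fabp5 are known in the mouse genome, so its reads may be shared with them. Relative to the median gene the difference between these scales was small: Lpl stood at -0.37 on CPM and -0.47 on TPM, and Fabp5 at -0.50 and -0.54. The ratio of Lpl to Fabp5 moved little, from 1.06 ± 0.018 to 1.12 ± 0.063 in TPM. The relatives Fabp3 and Fabp4, the latter a marker of fat cells and lipid-loaded macrophages, had 1 to 28 and 0 to 6 reads per sample, and Fabp5 made up 98.4 ± 1.71% and 98.7 ± 0.881% of the summed TPM of these 3 genes.

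Cd36 (ENSMUSG00000002944, chromosome 5, 17781690 to 17888801, minus strand), the scavenger receptor through which macrophages are known to take up oxidised lipoproteins and fatty acids, had 7, 1 and 0 reads in CAR-Ms and 20, 9 and 10 reads in CAR-Trem2-Ms. Summed over each group, this was 0.172 CPM (95% exact Poisson interval 0.0741 to 0.338) and 1.18 CPM (0.838 to 1.61), intervals that cover counting error only. The log2 fold change was 2.70 ± 0.74 (SE; edgeR, adjusted p = 1.59e-03), but CAR-Ms replicate 1 held 7 of the 8 CAR-Ms reads, and without it the value was 4.84. It passed the filter on low counts only through CAR-Trem2-Ms, where its level was still far below the 51.1 ± 0.529 CPM of Fabp5 in the same samples. On TPM it did not reach 1 in any sample and was not tested.

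**Figure D2:**
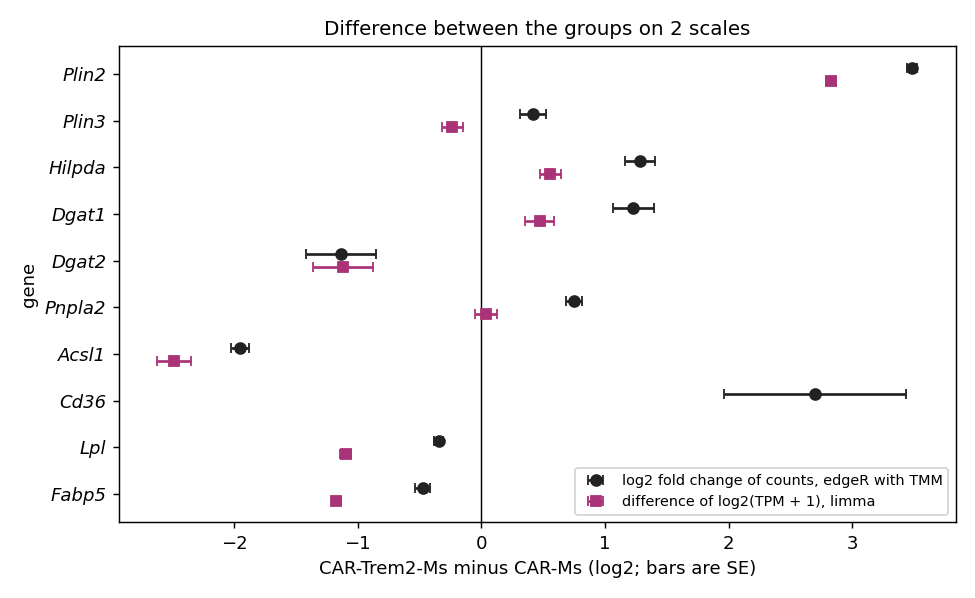
Difference between CAR-Trem2-Ms and CAR-Ms for each gene (y axis) on the log2 scale (x axis), from counts with edgeR (black circles) and from log2(TPM + 1) with limma (purple squares); bars are standard errors, and Cd36 was not tested on TPM. Every square but that of Dgat2 lies at least 0.5 to the left of its circle, Plin3 changes sign, Pnpla2 lies at 0.038, and Plin2, Hilpda, Dgat1, Dgat2, Acsl1, Lpl and Fabp5 stay on the same side of 0.

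Set beside each other per length, the 10 transcripts changed in make-up. Plin2 went from 10.5 ± 0.212% to 60.6 ± 0.791% of their summed TPM (SD, n = 3 each). Lpl and Fabp5 together led in CAR-Ms, with 33.2 ± 0.881% and 31.4 ± 0.374%, and came to 12.3 ± 0.26% and 11.02 ± 0.376% in CAR-Trem2-Ms. Acsl1 went from 8.35 ± 0.381% to 1.08 ± 0.26%, Pnpla2 from 8.37 ± 0.343% to 6.90 ± 0.882%, and Hilpda from 4.61 ± 0.404% to 5.46 ± 0.263%. The summed TPM of the 10 was 515 ± 11.6 in CAR-Ms against 646 ± 17.7 in CAR-Trem2-Ms. Without Plin2 it was 461 ± 10.2 and 254 ± 6.01. These sums carry the shift of the whole table on that scale, where the median over all genes was -0.63 on log2(TPM + 1). By counts, Plin3, Hilpda, Dgat1, Pnpla2 and Cd36 rose and Dgat2, Acsl1, Lpl and Fabp5 fell. Of the 5 TPM ratios computed between members (Plin2 to Plin3, to Pnpla2 and to Acsl1, Dgat1 to Dgat2, and Lpl to Fabp5), all 5 were separate between the groups. Each of the 5 ratios reached 0.1, the smallest two-sided p that an exact permutation test of 3 against 3 samples allows. After adjustment over the 5 it was 0.1 as well, so this test cannot pass 0.05 with 3 samples a group. The separation of all 5 is not a result about these genes, since 81.8% of all tested genes were separate in CPM. The share over ratios of other gene pairs was not computed.

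**Figure D3:**
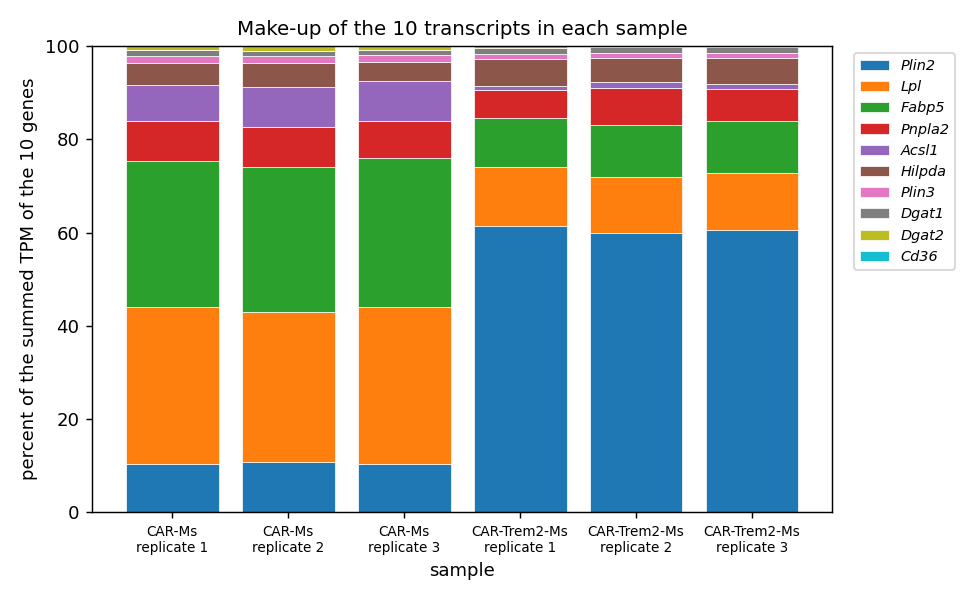
Share of each gene in the summed TPM of the 10 (y axis, percent) for each of the 6 samples (x axis). Plin2 fills 10.4 to 10.8% of the bars of CAR-Ms and 59.9 to 61.4% of those of CAR-Trem2-Ms, and Lpl and Fabp5 hold the largest shares in CAR-Ms and the next after Plin2 in CAR-Trem2-Ms.

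In the KEGG annotation that the authors' table carries, 5 of the 10 genes belong to the PPAR signalling pathway (92 genes in the table), the lipid-sensing nuclear receptor program. Plin2 rose and Acsl1, Lpl and Fabp5 fell, and the fifth, Cd36, was called higher on 8 reads in CAR-Ms against 39 in CAR-Trem2-Ms and was not tested on TPM. The 4 genes of glycerolipid metabolism (65 genes in the table) were likewise divided, with Dgat1 and Pnpla2 higher and Dgat2 and Lpl lower. Of the PPAR receptors themselves, Ppara had 0 to 2 reads per sample and Pparg 0 to 3, and neither was tested. Ppard had 28.1 ± 0.517 CPM in CAR-Ms against 27.2 ± 0.916 CPM in CAR-Trem2-Ms and did not pass (log2 -0.05; edgeR, adjusted p = 0.63). These 3 receptors were named after their values were seen.

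A further 99 genes of the same metabolism, listed by role, give the surroundings. Of these, 76 were tested, 26 rose, 31 fell and 19 did not pass, so 75% changed against 81.1% of all tested genes, and their median log2 fold change was -0.10. On log2(TPM + 1), 7 of 75 were higher and 56 lower with a median of -0.76, against 17.5% higher and 64.2% lower over all genes, so directions below are those of counts with TMM factors. The counts in each list are descriptions, with no test of a list or of a difference between lists, to be read against the 40.9% of all tested genes called higher and the 40.1% called lower.

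Genes of droplet coat and assembly (5 of 11 tested) had 2 rises, 1 fall and a median of 0.27. Bscl2, which encodes seipin, the protein of droplet budding, rose by 0.95 ± 0.08 (log2, SE), from 31.2 ± 1.77 to 60.0 ± 6.41 CPM (SD, n = 3 each). Rab18, a GTPase of the droplet surface, fell by 0.69 (log2), with 132 CPM in CAR-Ms against 81.9. Hsd17b11, a droplet-resident dehydrogenase, rose by 0.27, a call lost with total-count scaling (adjusted p = 0.119 in edgeR) and without CAR-Ms replicate 2 (adjusted p = 0.0609), and it turned to -0.40 on log2(TPM + 1).

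Other genes of triglyceride and sterol ester synthesis moved in both directions. Of 13 tested (of 14 listed), 8 fell, 2 rose and 3 missed the threshold (median -0.37), beside 40.1% lower and 40.9% higher over all tested genes. On log2(TPM + 1), 0 of 13 were higher and 12 lower, beside 17.5% higher and 64.2% lower over all genes on that scale. Lpin1, the phosphatase that makes diacylglycerol, fell by 2.38 ± 0.12 (log2, SE), from 48.6 ± 1.16 to 9.22 ± 2.53 CPM. Gpat4, which acylates glycerol 3-phosphate at the start of the pathway, fell by 1.26, from 276 ± 3.82 to 115 ± 2.64 CPM. Lpin3, a relative of Lpin1, rose by 1.05 from 3.54 ± 0.632 to 7.41 ± 1.47 CPM, a call lost on log2(TPM + 1) (limma, adjusted p = 0.196). Agpat3 rose by 0.20, lost with total-count scaling (adjusted p = 0.274 in edgeR) and without CAR-Trem2-Ms replicate 1 (adjusted p = 0.0596), and turned to -0.36 on log2(TPM + 1).

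In lipolysis, 3 of 6 genes were tested, and 1 rose and 2 fell (median -0.74). Abhd5, the coactivator of the Pnpla2 lipase, fell by 0.94 ± 0.08 (log2, SE), from 54.6 ± 1.61 to 28.4 ± 3.14 CPM, in the samples where Pnpla2 itself was higher in CPM. Lipa, the lysosomal acid lipase, fell by 0.74, from 294 to 176 CPM. Lipe, the hormone-sensitive lipase, rose by 0.30 and turned to -0.36 on log2(TPM + 1). G0s2, a second inhibitor of the lipase, had 0 to 3 reads per sample, Mgll 0 to 3 and Pnpla3 0 to 1; these untested genes were named after their values were seen.

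In fatty acid activation, 7 of 9 genes were tested, of which 2 rose and 5 fell (median -0.35), where 81.1% of all tested genes changed. Acsbg1, a bubblegum-type acyl-CoA synthetase, rose from 9.59 ± 0.69 to 96.4 ± 3.14 CPM, a log2 change of 3.33 ± 0.08 (SE). Slc27a1, a fatty acid transport protein with synthetase activity, rose by 1.33 ± 0.03, from 138 ± 1.17 to 348 ± 8.34 CPM. The rise of both stands beside the falls of Acsl1, of Acsl4 by 1.05 (179 to 86.9 CPM) and of Slc27a3 by 0.77 (10.6 to 6.17 CPM). On log2(TPM + 1), Acsbg1 and Slc27a1 were higher as well, by 2.45 and 0.65.

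Among genes of uptake and binding, 6 of 10 were tested, with 3 rises and 2 falls (median 0.19). Lmf1, the factor that matures the Lpl protein in the endoplasmic reticulum, rose by 1.01, from 13.2 ± 1.36 to 26.5 ± 1.00 CPM. Lrp1, a large endocytic receptor, rose by 0.61, from 406 to 620 CPM, and turned to -0.17 on log2(TPM + 1). Scarb1, the HDL receptor, fell by 0.26, a call lost with upper quartile factors (-0.025; adjusted p = 0.707 in edgeR).

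In fatty acid oxidation, 10 of 21 tested genes (of 23 listed) rose and 5 fell, while 6 missed the threshold (median 0.13), beside 40.9% higher and 40.1% lower over all tested genes. On log2(TPM + 1), 1 of its 21 genes was higher and 14 were lower, with a median of -0.59, near the -0.63 of all genes. Cpt1c, a carnitine palmitoyltransferase known from neurons, rose from 1.93 ± 0.095 to 12.0 ± 2.15 CPM (log2 2.62 ± 0.22, SE), while Acads, the short-chain acyl-CoA dehydrogenase, rose by 0.90 (lost on log2(TPM + 1), adjusted p = 0.153 in limma). Cpt1a, the carnitine palmitoyltransferase that gates mitochondrial entry in most cells, fell by 0.52, from 88.0 ± 5.87 to 61.2 ± 0.444 CPM, and Hadhb, of the trifunctional enzyme, by 0.61.

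In fatty acid synthesis, 7 of 12 genes fell, 2 rose and 3 did not pass (median -0.45), where 40.1% of all tested genes fell. On log2(TPM + 1), 0 of its 11 tested genes were higher and 10 lower, beside 17.5% higher and 64.2% lower over all genes on that scale. Acaca, the carboxylase that makes malonyl-CoA, fell by 1.15 ± 0.05 (log2, SE), from 158 ± 4.78 to 71.1 ± 2.36 CPM, and Scd1, a desaturase, by 1.20 ± 0.10, from 41.1 ± 1.19 to 17.9 ± 1.73 CPM. Acss2, which activates acetate, rose by 0.86 from 5.62 to 10.3 CPM, a call lost on log2(TPM + 1) (limma, adjusted p = 0.347), and the desaturase gene Fads1 rose by 0.38 and turned to -0.31 on that scale. Of the regulators, 9 of 14 were tested, with 4 rises, 1 fall and 4 not past the test (median 0.32). Nr1h3 and Nr1h2, the liver X receptors, rose by 1.43 ± 0.25 and 1.06 ± 0.06 (log2, SE), Nr1h3 from 2.87 ± 0.802 to 7.75 ± 1.65 CPM and Nr1h2 from 44.4 ± 0.862 to 92.3 ± 3.58 CPM. On log2(TPM + 1) both were still higher, by 0.61 and 0.25, but the groups overlapped in TPM for Nr1h2. Nr1h3 had only 29 to 57 reads per CAR-Ms sample. Hif1a, the hypoxia factor known to induce Hilpda, fell by 0.64, from 199.9 ± 0.688 to 129 ± 3.38 CPM, in the samples where Hilpda was higher. Hif1a protein was not measured here, and a link between these genes was not tested.

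**Figure D4:**
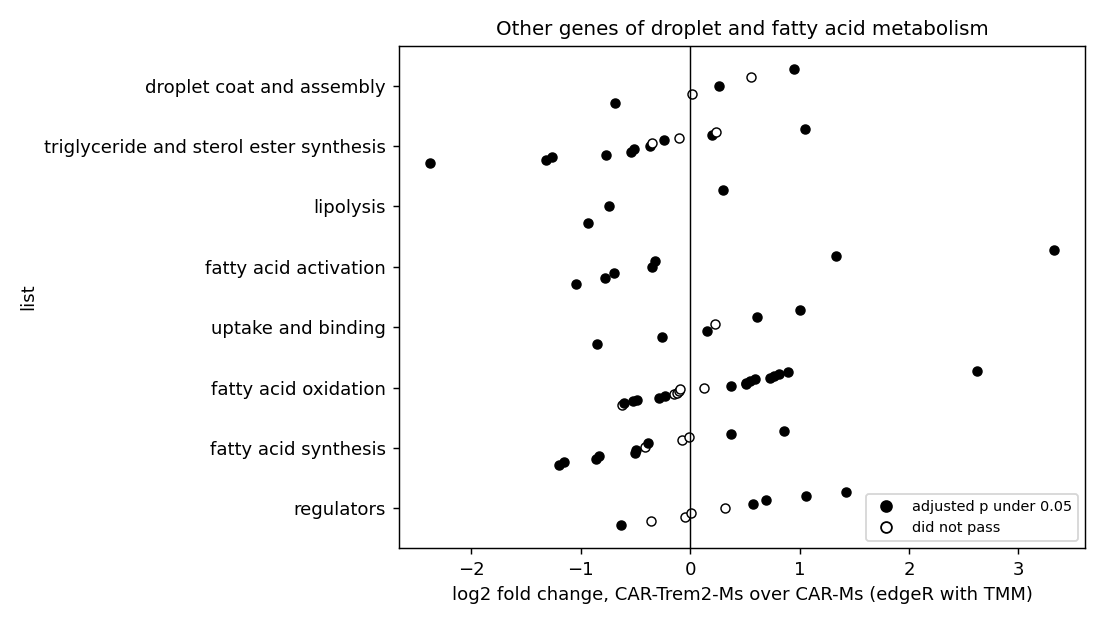
Log2 fold change (x axis; edgeR with TMM factors, CAR-Trem2-Ms over CAR-Ms) of the 76 tested genes in 8 role lists (y axis); each point is 1 gene, filled where the adjusted p was under 0.05. Points lie on both sides of 0 within the synthesis and oxidation lists, and the farthest are Acsbg1 at 3.33, Cpt1c at 2.62 and Lpin1 at -2.38.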

How the data were processed

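RNA from 3 CAR-Ms and 3 CAR-Trem2-Ms samples was sequenced; per the labels' protocols, RNA was taken with Trizol and libraries came from a kit named SMARTER mRNA-Seq. The authors deposited 1 table of 22063 genes. Raw counts and TPM (which the authors scaled for length) stand side by side, per the file headers. The authors' deposited log2 fold change equalled the log2 ratio of their mean TPM columns (within 0.001, all 22063 genes), while nothing read here names the tool of their deposited p-value. The submitters' processing notes list mm10, StringTie 1.3.1, HISAT2, Bowtie2 2.2.8 and fastp 0.18.0. The counting tool and its use of strand: not given in the sources used here.

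Counts were fitted over the whole table in edgeR 4.0.16 (R 4.3.3) with the quasi-likelihood test after filterByExpr (11402 genes) and TMM scaling. Benjamini-Hochberg adjustment ran over all of them, with a call at an adjusted p under 0.05. CPM uses TMM library sizes; SE is the fold change divided by the root of its F statistic. TPM was tested with limma 3.58.1 on log2(TPM + 1) where 3 samples reached a TPM of 1, a scale that understates the change of low genes. Scripts were tested on simulated data. Replicate pairs differed by a chi-square of 2.187 to 3.338 per degree of freedom (genes with at least 20 reads), above the 1 of sampling noise, so no pair agreed within counting noise; this does not show that they are biological replicates. Coordinates are GENCODE M21 (GRCm38). The members and lists were chosen with earlier results of these data known. All 10 members are named; from each role list, up to 2 rises and 2 falls of the largest size with at least 50 reads in the higher group and no overlap between groups. This rule named 1 further gene that is not reported here.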

Additional observations from a re-analysis of the deposited data

How the results depend on the processing

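The alternatives were RLE, upper quartile and total-count scaling, no filter and a filter of 10 reads in every sample of 1 group, DESeq2 1.42.0, limma-voom, log2(TPM + 1) in limma, a replicate block, mitochondrially encoded genes left out, a loess trend over gene length removed (value only), stricter thresholds, and each sample left out. The filter of 10 reads left Cd36 untested, as did log2(TPM + 1). Over the table, 4668 genes rose and 4577 fell; on log2(TPM + 1) these were 1890 and 6946, and with a log2 fold change of at least 1 they were 2136 and 1629. Of the 10 members, 6 rose and 4 fell. On log2(TPM + 1), 3 rose and 5 fell of 9 tested, beside 17.5% higher and 64.2% lower over all genes. With a log2 fold change of at least 1, 4 rose and 2 fell. Of the 99 role genes, 26 rose and 31 fell; on log2(TPM + 1) these were 7 and 56, and with a log2 fold change of at least 1, 7 and 6. Leaving out a sample gave 6 and 4 members each time, 24 to 28 and 30 to 32 role genes, and 4497 to 4662 and 4414 to 4575 genes of the table.

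The median gene moved from 0.03 to 0.26 with upper quartile factors, to -0.10 with total counts, to -0.07 without the length trend and to -0.63 on log2(TPM + 1). On log2(TPM + 1) the direction reversed for Plin3 (-0.24), Hsd17b11 (-0.40), Agpat3 (-0.36), Lipe (-0.36), Lrp1 (-0.17) and Fads1 (-0.31), and the call of Pnpla2 was lost (0.038). All of these values lay above the -0.63 of the median gene on that scale. The cause of the shift between the scales was not tested. Plin2 lay between 2.83 and 3.72 over all alternatives, Acsl1 between -2.49 and -1.63, Hilpda between 0.51 and 1.51, Dgat1 between 0.47 and 1.46, and Dgat2 between -1.52 and -0.89. Lpl ranged from -1.10 to -0.018, the latter with the length trend removed over the union of annotated exons, which can exceed the main transcript. Fabp5 ranged from -1.17 to -0.24.

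The replicate numbers showed no sign of pairing: deviations of same-numbered samples correlated at 0.011, -0.0298 and 0.0319. Not every sample correlated best with its own number. Deviations from means of 3 samples cannot exclude that same-numbered samples shared a culture or day. With the replicate block, 6 members rose and 4 fell, 26 role genes rose and 30 fell, and 4627 and 4561 genes of the table changed. Depth limits Cd36, at 8 and 39 reads per group, and Dgat2, at 267 and 87.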

Other observations

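The CAR-Trem2-Ms sample with the highest value differed between counts and TPM for Acsl1 and Dgat2. Acsl1 was lowest by CPM in CAR-Trem2-Ms replicate 2 (20.4, against 22.3 and 24.0 in replicates 1 and 3) and its highest TPM there (8.86, against 5.77 and 6.26). Dgat2 was lowest in that sample on both scales, at 1.49 CPM and 0.72 TPM. For Dgat2 the highest CAR-Trem2-Ms sample was replicate 3 in CPM (3.76, against 2.42 in replicate 1) and replicate 1 in TPM (2.30, against 1.81 in replicate 3).

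The authors' deposited table gives Pnpla2 a log2 fold change of 0.04 beside an adjusted p of 9.17e-25. For Plin3 it gives a log2 fold change of -0.27 with an adjusted p of 1.43e-03, where the fit of counts gave 0.42. These deposited fold changes are ratios of mean TPM, and the deposited p need not belong to them. DESeq2 on counts gave an adjusted p close to the deposited one for both genes. It was 7.60e-25 for Pnpla2 at a log2 fold change of 0.72, and 1.18e-03 for Plin3 at 0.39, a rise. For Plin2 and Acsl1 the authors' deposited table gives 2.85 and -2.63.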
